A study of Homo sapiens with 4 samples.

Results

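Expression of 10 amino acid transporter genes was compared between ATO-treated and negative control (NC) Huh7 and Hep3B cells. The genes, chosen by name as carriers for cystine, leucine, arginine, glutamine, serine and glycine, with earlier results of these profiles known, were SLC7A11, SLC3A2, SLC7A5, SLC43A1, SLC7A1, SLC1A4, SLC1A5, SLC38A1, SLC38A2 and SLC6A9, and all 10 were among the 19775 genes measured. Huh7 and Hep3B are established human hepatocellular carcinoma (HCC) lines. Treated cells received arsenic trioxide (ATO), an arsenical drug, at 3 μM for 7 days, and NC cells received the solvent DMSO. Each of the 4 conditions had 1 expression profile on Affymetrix Human Genome U133 Plus 2.0 arrays, so a ratio within a line has no error of its own, and the number of profiles limits the precision. The values are normalized intensities on a linear scale, read from a probe set, a group of short probes for 1 transcript. Each gene was read from its brightest probe set, and a ratio of ATO over NC above 1.5 or below 0.67, the limits used in the study, was taken as past the threshold. Albumin and AFP, which Huh7 is known to make, were far lower in the profiles labeled Huh7 than in Hep3B. The identity of those profiles was not tested, so each Huh7 ratio holds for the profiles as labeled, and the Hep3B ratios are given beside them throughout.

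Amino acids cross the plasma membrane through carriers that differ in what they accept and in what drives them. SLC7A11 brings in cystine, the oxidized form of cysteine, in exchange for glutamate, and so feeds glutathione synthesis. SLC7A5 brings in leucine and other large neutral amino acids by exchange, and both SLC7A11 and SLC7A5 are light chains that need the heavy chain SLC3A2 to reach the membrane. When amino acids run short or proteins are damaged, kinases of the integrated stress response favor translation of the transcription factor ATF4, which is known to raise many transporter genes, while NRF2, the factor of the oxidative stress response, is known to raise SLC7A11.

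Of the 10 transporters, SLC7A11, SLC7A5 and SLC3A2 had ratios above 1.5 in both lines. A share of 0.804% of all genes was above 1.5 in both lines. In Hep3B, SLC7A1, SLC1A4 and SLC1A5 were also above 1.5, which made 6 of 10, where the share of all genes was 5.04%. In Huh7, 3 of 10 were above 1.5, where the share of all genes was 3.21%. No transporter was below 0.67 in either line, while 3.25% of all genes were below it in Huh7, 4.02% in Hep3B and 0.587% in both. The ratio was above 1 in both lines for 7 of the 10 genes, a position held by 32.0% of all genes. The median log2 ratio of the 10 genes was 0.25 in Huh7 and 0.95 in Hep3B, and that of all genes was 0.01 and 0.04. Because of how the genes were chosen, these counts are a description.

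**Figure D1:**
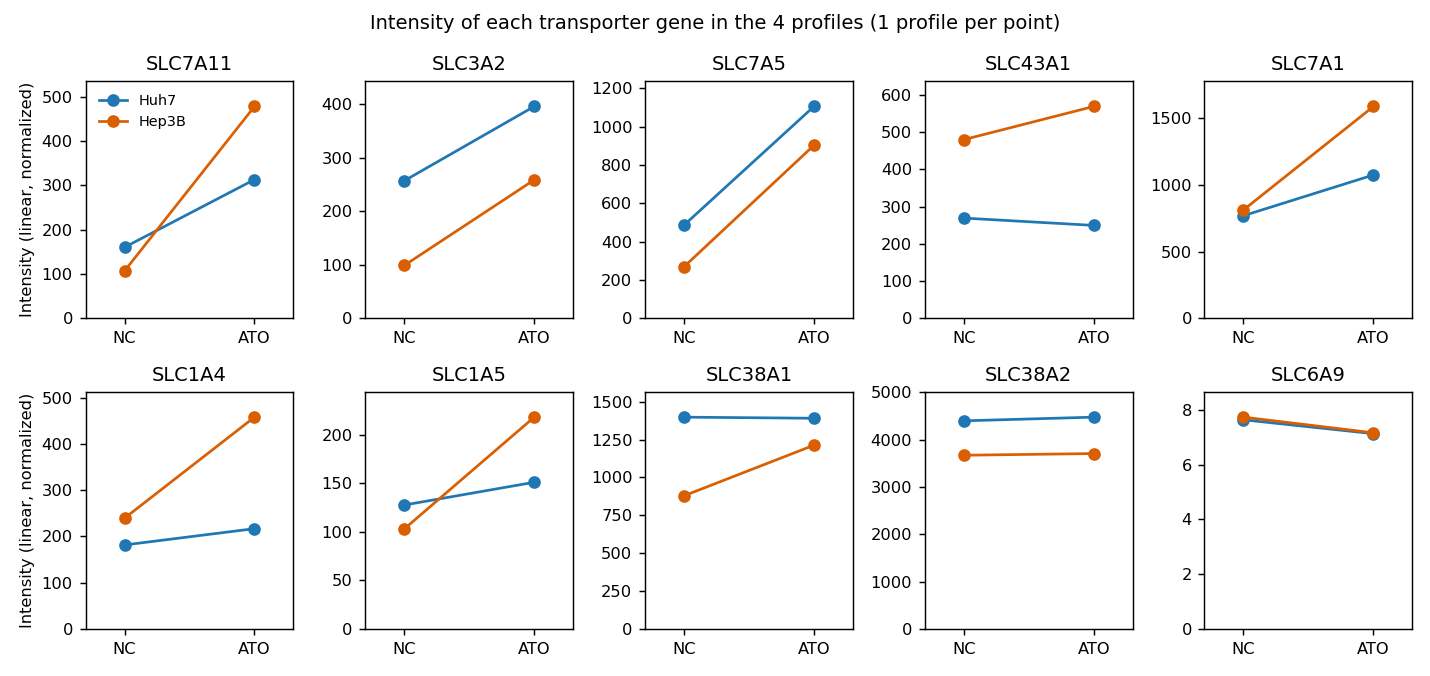
Normalized intensity (y axis, linear, from 0) of each transporter in NC and ATO profiles (x axis), 1 point per profile, with a line joining the NC and ATO profile of Huh7 (blue) and of Hep3B (orange). SLC7A11, SLC7A5 and SLC3A2 were higher with ATO in both lines, whereas SLC38A2 had nearly the same intensity in NC and ATO profiles of a line, 4396 and 4474 in Huh7.

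The cystine carrier SLC7A11 had the highest Hep3B ratio of the 10 genes. On probe set 209921_at its intensity was 160 in NC and 313 in ATO-treated Huh7 cells, and 107 in NC and 479 in ATO-treated Hep3B cells. Both ATO profiles were thus above both NC profiles. The ratios were 1.96 in Huh7 and 4.48 in Hep3B, at rank 165 and rank 27 of 19775 genes ordered from the highest ratio down. The other two SLC7A11 probe sets were also above 1.5 in both lines, 217678_at with 1.91 and 4.98 and 207528_s_at with 2.03 and 1.97. The ratio of 209921_at and 217678_at in Hep3B was thus more than 2 times that in Huh7, whereas 207528_s_at had nearly the same ratio in both.

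SLC3A2, the heavy chain that SLC7A11 and SLC7A5 share, was read from 1 probe set, 200924_s_at. Its intensity was 257 in NC and 396 in ATO-treated Huh7 cells, and 98.6 in NC and 259 in ATO-treated Hep3B cells. The ATO profiles were above the NC profile of their own line, but ATO-treated Hep3B was at the level of NC Huh7. The ratios were 1.54, near the threshold, and 2.62. SLC7A5, the leucine carrier LAT1, also had 1 probe set, 201195_s_at, with 486 in NC and 1105 in ATO-treated Huh7 cells and 268 in NC and 902 in ATO-treated Hep3B cells. Both ATO profiles were above both NC profiles. Its ratios of 2.28 and 3.36 were at ranks 104 and 48, and it was the 1 transporter past a ratio of 2.0 in both lines. SLC43A1, or LAT3, carries large neutral amino acids without a heavy chain. It had intensities of 269 in NC and 249 in ATO-treated Huh7 cells, and of 480 in NC and 569 in ATO-treated Hep3B cells. Its ratios of 0.927 and 1.19 were within the thresholds, and its order followed the cell line, with both Hep3B profiles above both Huh7 profiles.

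SLC7A1, the carrier of arginine and lysine also called CAT1, was past the threshold in Hep3B and just short of it in Huh7. On its brightest probe set, 212295_s_at, it had 768 in NC and 1074 in ATO-treated Huh7 cells, and 812 in NC and 1587 in ATO-treated Hep3B cells. The NC profiles of the lines were close together, and both ATO profiles were above them. The ratios were 1.40 and 1.96. Of its other probe sets, 212290_at had ratios of 1.36 and 2.23, and 212292_at 1.01 and 1.3. The remaining 2 probe sets of SLC7A1 were dimmer than the median of all probe sets, 17.3, and had ratios between 0.939 and 1.19.

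The neutral amino acid carriers SLC1A4 and SLC1A5, known as ASCT1 and ASCT2, were both past the threshold in Hep3B alone. SLC1A4 takes up alanine, serine and cysteine. Its brightest probe set, 212811_x_at, had 181 in NC and 217 in ATO-treated Huh7 cells, and 239 in NC and 458 in ATO-treated Hep3B cells. The suffix _x_at marks probes that may also match other transcripts. The ratios were 1.19 and 1.91, and 209610_s_at, a probe set of another kind, had 1.15 and 1.62. Of the other SLC1A4 probe sets, 212810_s_at had 1.04 and 1.86, but 209611_s_at had 1.05 and 1.15, within the thresholds in both lines. The dim 244377_at had 1.26 and 0.948. SLC1A5 takes up glutamine and small neutral amino acids. It had 1 probe set, 208916_at, with 128 in NC and 151 in ATO-treated Huh7 cells and 103 in NC and 218 in ATO-treated Hep3B cells. ATO-treated Hep3B had the highest and NC Hep3B the lowest value, and the ratios were 1.18 and 2.12.

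The sodium-coupled carriers SLC38A1 and SLC38A2, which take up glutamine and alanine, gave different answers by probe set. The brightest SLC38A1 probe set, 224579_at, had 1399 in NC and 1391 in ATO-treated Huh7 cells, and 879 in NC and 1213 in ATO-treated Hep3B cells. Its ratios were 0.995 and 1.38. The probe sets 218237_s_at and 224580_at had ratios of 1.20 and 1.59, and of 1.60 and 1.69. SLC38A2 was read from 222982_x_at, at 4396 in NC and 4474 in ATO-treated Huh7 cells and 3669 in NC and 3705 in ATO-treated Hep3B cells. Its ratios of 1.02 and 1.01 compare with 1.28 and 1.36 on 220924_s_at and with 1.42 and 1.21 on 218041_x_at. For both genes the brightest probe set thus had the lowest Huh7 ratio among probe sets at or above the median intensity. SLC6A9, the glycine carrier GlyT1, was dimmer than the median of all probe sets in every profile, between 7.13 and 7.73, so its ratios of 0.934 and 0.926 rest on dim values.

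**Figure D2:**
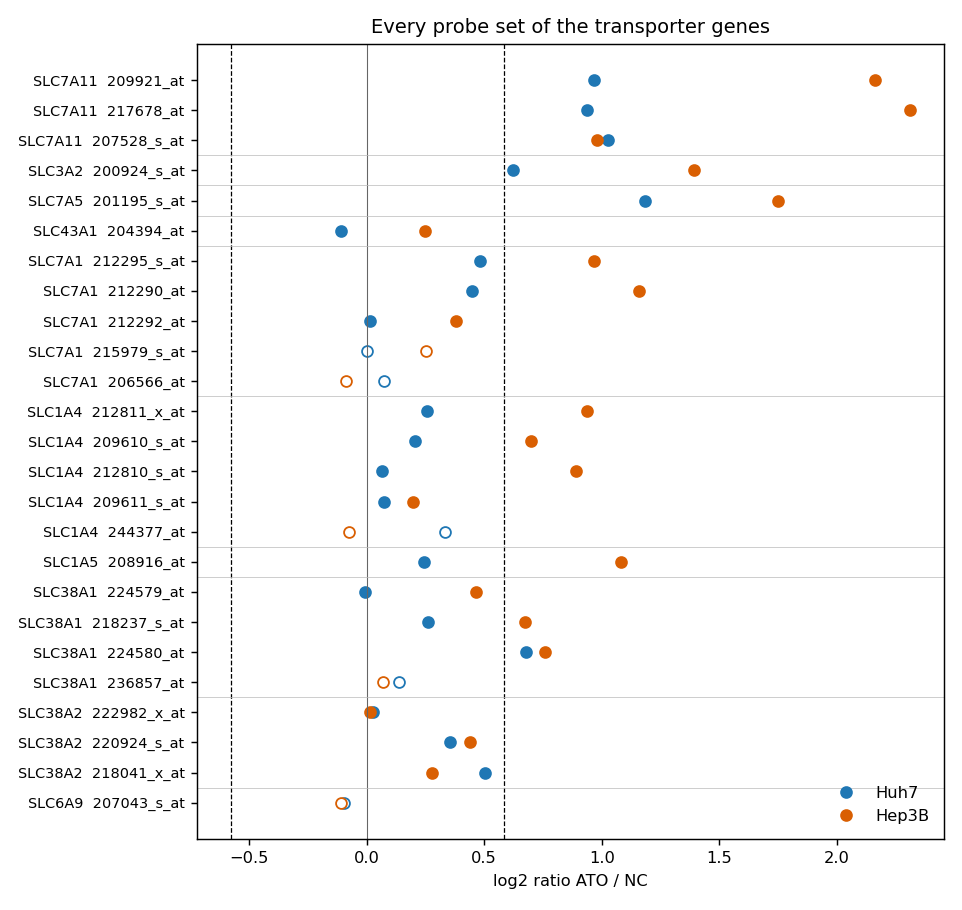
Log2 ratio of ATO over NC (x axis) for each of the 25 probe sets of the transporters (y axis), with 1 point for Huh7 (blue) and 1 for Hep3B (orange). Hollow points are probe sets dimmer than the median of all probe sets, and dashed lines mark ratios of 1.5 and 0.67. All 3 SLC7A11 probe sets lie above 1.5 in both lines, and none of the 25 lies below 0.67.

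The 10 genes had 25 probe sets in all, none of them shared with another named gene, and 20 were at or above the median intensity. Of the 25, 6 were above 1.5 in both lines, where 0.611% of all probe sets that name 1 gene were. These 6 were the 3 of SLC7A11, 1 each of SLC3A2 and SLC7A5, and 224580_at of SLC38A1. In Hep3B 13 were above 1.5, all of them among the brighter 20. The share of all probe sets above 1.5 in Hep3B was not computed, and that of all genes was 5.04%. Probe sets of 1 gene read the same RNA and are not replicates of the treatment.

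With the lines as the 2 replicates, ATO and NC were compared by limma on log2(intensity + 16) over all genes, with cell line as a term. No transporter was called, and none of the 19775 genes had an adjusted p under 0.05 (0.00%), the smallest limma adjusted p being 0.506. At an unadjusted limma p under 0.05, 1036 genes (5.24%) were higher with ATO and 850 were lower, and 4 of the 10 transporters were among the higher ones. SLC7A5 had a log2 difference of 1.43 (SE 0.17, n = 2 lines) with a limma adjusted p of 0.506. SLC7A11 had 1.46 (SE 0.34), SLC3A2 0.93 (SE 0.21) and SLC7A1 0.71 (SE 0.16) on the same scale, each with the same limma adjusted p of 0.506. The fit has 1 residual degree of freedom, and it takes a line's departure from the mean response as error. When limma's prior followed intensity, 9 genes were called, none of them a transporter, and SLC7A5 had the lowest adjusted p of the transporters, 0.0855.

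The ratio was higher in Hep3B for 8 of the 10 transporters, where 53.7% of all genes had the higher ratio in Hep3B. For SLC7A11, SLC1A5, SLC3A2 and SLC1A4 the Hep3B ratio was more than 1.5 times the Huh7 ratio, at 2.29, 1.79, 1.70 and 1.60 times, where 7.64% of all genes were. The exceptions, SLC38A2 and SLC6A9, had nearly equal ratios in the lines. With 1 profile per condition and line, this difference between the lines was not tested and cannot be told apart from noise.

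**Figure D3:**
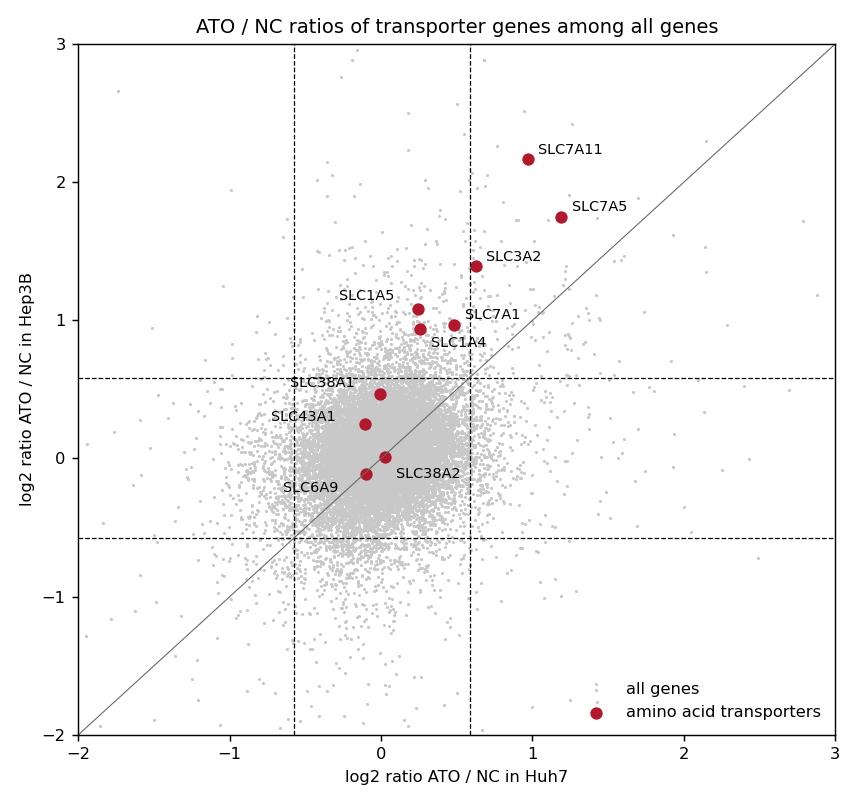
Log2 ratio of ATO over NC in Huh7 (x axis) and in Hep3B (y axis) for all genes (gray) and the 10 transporters (red), with dashed lines at 1.5 and 0.67 and a diagonal where the lines respond equally. A further 38 genes lie outside the axes. SLC7A11, SLC7A5 and SLC3A2 lie past 1.5 in both lines, and 8 of 10 transporters lie above the diagonal.

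The lines also started from different levels. In NC cells, SLC3A2 was 2.60 times higher in Huh7 than in Hep3B, SLC7A5 1.81 times, SLC38A1 1.59 times and SLC7A11 1.501 times. These 4 of 10 genes were more than 1.5 times higher in NC Huh7, where 16.9% of all genes were. SLC7A11 was barely past that limit. The count was 3 with the mean of all probe sets and 3 with arrays centred on their median. SLC43A1, at 1.78 times, was the 1 transporter more than 1.5 times higher in NC Hep3B, where 15.3% of all genes were. Under ATO, SLC7A11 was 1.53 times and SLC1A5 1.44 times higher in Hep3B, so on these probe sets the order of the lines was the opposite of that in NC cells. The SLC7A11 probe set 217678_at also changed order, but 207528_s_at did not. On 207528_s_at Huh7 was above Hep3B both in NC cells, at 23.9 and 15.5, and under ATO, at 48.6 and 30.6. SLC3A2 and SLC7A5 remained lower in Hep3B, at 0.653 and 0.817 of the Huh7 level. The ratio between lines in ATO-treated cells, the ratio between lines in NC cells and the response ratios share the same 4 values, so they are 1 observation seen from several sides.

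**Figure D4:**
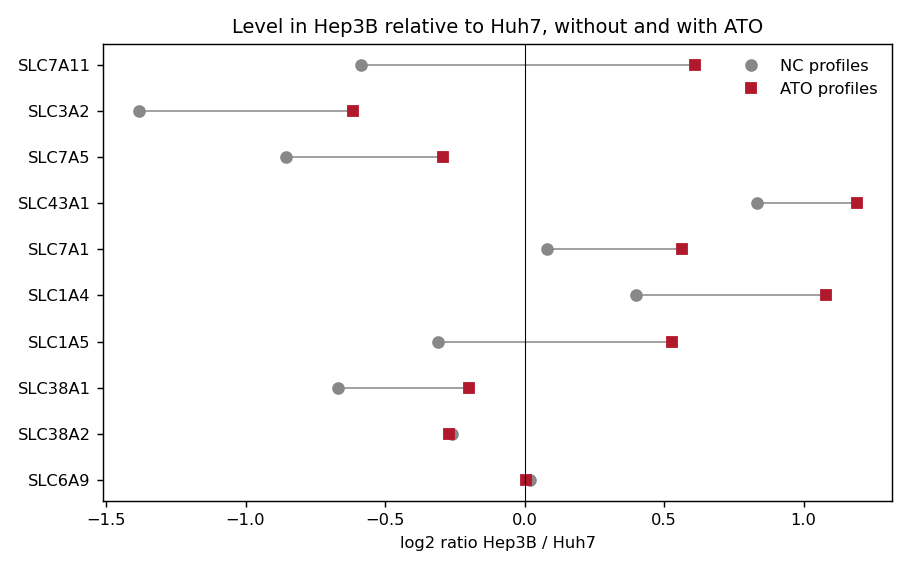
Log2 ratio of Hep3B over Huh7 (x axis) for the brightest probe set of each transporter (y axis) in NC profiles (gray circles) and ATO profiles (red squares). In SLC7A11 and SLC1A5 the pair of points lies on both sides of 0, and in SLC3A2 and SLC7A5 both points lie below 0.

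Other amino acid transporters were past a threshold in 1 line at most. Of 36 further carriers of the SLC1, SLC3, SLC6, SLC7, SLC16, SLC36, SLC38 and SLC43 families, none was past a threshold in both lines. Among all genes, 0.804% were above 1.5 in both lines and 0.587% below 0.67, so none of 36 is near these shares. In Huh7 1 was above 1.5 and 4 were below 0.67, where 3.21% and 3.25% of all genes were. In Hep3B 3 were above and 2 below, where 5.04% and 4.02% of all genes were. Their median log2 ratio was -0.01 in Huh7 and 0.07 in Hep3B. SLC7A7, a light chain for cationic and neutral amino acids that also pairs with SLC3A2, had ratios of 1.16 and 2.71. The glutamate carrier SLC1A3 had 2.03 and 1.46, and the aromatic amino acid carrier SLC16A10 0.499 and 0.711. SLC6A14, a broad neutral and cationic carrier, had 1.32 from dim values in Huh7 and 0.240 in Hep3B. The others past a threshold in 1 line were chosen for naming after their values were seen. Among them was SLC7A6, another light chain of SLC3A2, with 1.17 and 1.83, and the arginine carrier SLC7A2, with 0.659 and 0.826. SLC38A10 had 0.810 and 1.66, and SLC38A11 0.406 and 1.03. SLC38A4 had 0.443 in Hep3B, from 38.6 in NC to 17.1 in ATO-treated cells, and was dim in both Huh7 profiles. The median of all probe sets was 17.3. The glutamate carrier SLC1A6 had 0.567 in Huh7 and was dim in both Hep3B profiles.

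Genes of the amino acid response, many of which ATF4 is known to drive, had more ratios above 1.5 in Hep3B than in Huh7, as the transporters and all genes did. The list also holds ATF4 itself and EIF2AK3 and EIF2AK4, kinases that favor its translation, none of them past a threshold. Of 29 measured, 19 were above 1.5 in Hep3B, 6 in Huh7 and 5 in both lines, and PSPH, which completes serine synthesis, was below 0.67 in Hep3B, at 0.629 (named after its value was seen). The median log2 ratio was 0.34 in Huh7 and 0.93 in Hep3B, and 23 of 29 had the higher ratio in Hep3B. Of all genes, 5.04% were above 1.5 in Hep3B, 3.21% in Huh7 and 0.804% in both, and 4.02% were below 0.67 in Hep3B. The ratio was higher in Hep3B for 53.7% of all genes. The 5 past the threshold in both lines were the stress protein NUPR1, at 2.33 and 2.46, the hormone FGF21, at 1.69 and 2.0 over dim NC values, the secreted glycoprotein STC2, at 1.61 and 3.91, the transcription factor ATF3, at 1.54 and 2.34, and the pseudokinase TRIB3, at 1.52 and 2.74. CHAC1, which breaks down glutathione, had 1.43 and 3.83, and ASNS, which makes asparagine, 1.19 and 2.72. DDIT3, the factor CHOP, had 1.27 and 1.70. The ATF4 transcript itself was at 1.01 and 1.20, and its control by translation is not read by arrays. Which of these genes ATF4 bound or drove here was not tested.

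Target genes of NRF2 were past the threshold at nearly the same rate in the lines. The list also holds the gene of NRF2 itself, NFE2L2, and that of its repressor KEAP1, neither past a threshold. Of 25 measured, 14 were above 1.5 in Huh7, 15 in Hep3B and 11 in both, and none was below 0.67 in either. Of all genes, 3.21% were above 1.5 in Huh7, 5.04% in Hep3B and 0.804% in both, and 3.25% and 4.02% were below 0.67. The median log2 ratio was 0.65 in Huh7 and 0.89 in Hep3B, and 13 of 25 had the higher ratio in Hep3B, where 53.7% of all genes had. HMOX1, which breaks down heme, had ratios of 8.28 and 4.97, NQO1, a quinone reductase, 2.35 and 1.87, and SRXN1, which repairs peroxiredoxins, 2.37 and 1.85. These 3 had the larger ratio in Huh7, whereas 13 of the 25 had it in Hep3B, as SLC7A11 did. PIR, an iron-binding nuclear protein, had 2.0 and 2.34. AKR1C1, an aldo-keto reductase read from an _x_at probe set, had 1.65 and 67.6. The NFE2L2 transcript, which encodes NRF2, was at 0.992 and 0.980.

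The lists overlap in part. Among 14 genes that use or supply cystine and cysteine, 3 were above 1.5 in both lines, where 0.804% of all genes were. The median log2 ratio of the 14 was 0.20 in Huh7 and 0.45 in Hep3B. GCLM and GCLC, the subunits of the enzyme that joins cysteine to glutamate for glutathione, had ratios of 2.15 and 3.30, and of 2.09 and 2.07. TXNRD1, a reductase that can also reduce cystine, had 3.33 and 2.08. The next genes were named after their values were seen. GSR, which regenerates reduced glutathione, had 1.61 and 1.01, and CTH, which makes cysteine from cystathionine, 1.33 and 2.29. Below 0.67 in Hep3B were CSAD, an enzyme of taurine synthesis, at 0.578 and CHAC2, which breaks down glutathione, at 0.645. Of 19 genes for amino acid sensing by mTORC1, the kinase complex that leucine activates, none was above 1.5 in both lines. SESN1 was below 0.67 in both, at 0.636 and 0.565. In both lines, 0.804% of all genes were above 1.5 and 0.587% below 0.67. The leucine sensor SESN2 was at 0.986 and 1.78, and DEPDC5, a subunit of the complex that restrains mTORC1, at 1.25 and 1.34. SESN3 was at 0.822 from dim values in Huh7 and 0.214 in Hep3B. The list medians were 0.04 and 0.06 on the log2 scale.

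**Figure D5:**
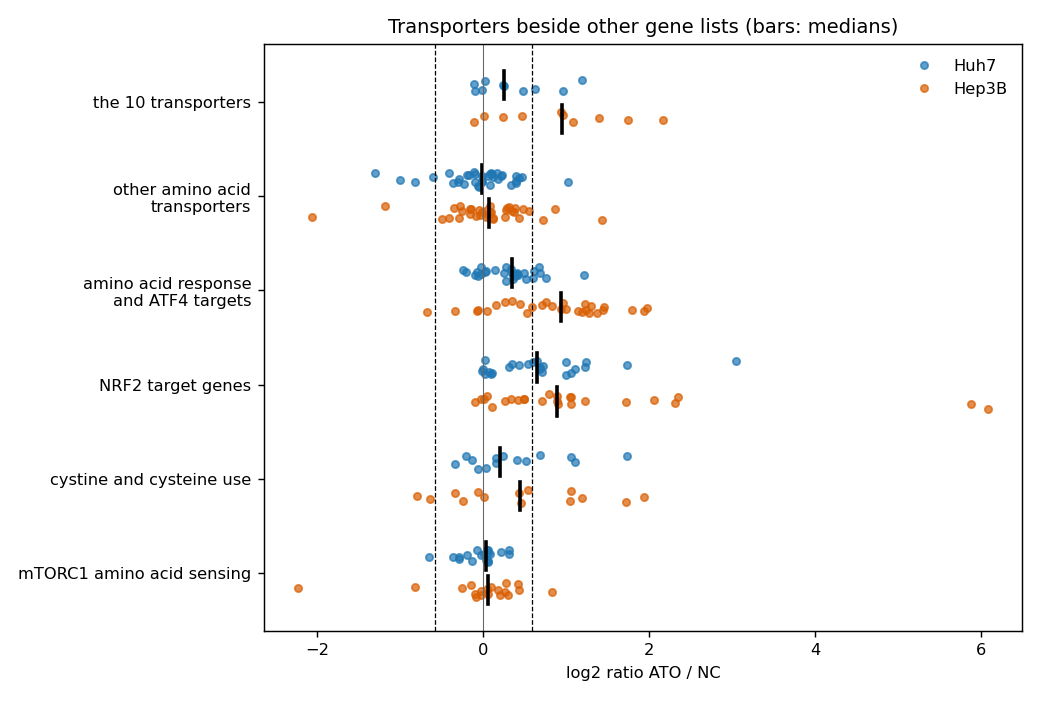
Log2 ratio of ATO over NC (x axis) in Huh7 (blue) and Hep3B (orange) for the 10 transporters and 5 other gene lists (y axis), 1 point per gene, with black bars at the medians and dashed lines at 1.5 and 0.67. The medians of the transporters and of the amino acid response genes lie higher in Hep3B, at 0.95 and 0.93, than in Huh7, at 0.25 and 0.34.

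Promoter sequences from RefSeq (GRCh38.p14) were set beside these ratios, because 7 of the transporters were higher with ATO in both lines. For 9 of the 10 genes, all except SLC7A11, 16 windows were available, each from 250 bases before to 50 after an annotated start site. The C/EBP-ATF element, the composite site that ATF4 binds, was searched on both strands as TGATGNAAN, and 5 of 9 genes held it in at least 1 window, where 4.45% of 27305 genes did. By window, 5 of 16 held it, against 3.61% of 35116 windows. The matches are shown 5′ to 3′ on the strand of the gene with the matched letters in capitals, and those of SLC3A2 and SLC1A4 lie on the opposite strand to the gene:
SLC3A2, chr11:62881725-62881748, plus strand: tgcaggactcCTTACATCAgctcc
SLC7A1, chr13:29595663-29595691, minus strand: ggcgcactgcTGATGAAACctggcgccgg
SLC1A4, chr2:64989381-64989409, plus strand: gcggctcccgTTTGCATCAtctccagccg
SLC1A5, chr19:46784893-46784921, minus strand: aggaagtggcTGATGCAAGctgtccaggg
SLC38A1, chr12:46266502-46266530, minus strand: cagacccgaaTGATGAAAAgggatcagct
In SLC7A1, SLC1A4 and SLC38A1 the match lay within 15 bases of the start site, counted from 0 at the start, at 7 to 15, -8 to 0 and -4 to 4. In SLC3A2 it lay at 36 to 44, and in SLC1A5 at -97 to -89. Each position counts from the start site of the window that held the match. SLC3A2, SLC1A4, SLC1A5 and SLC38A1 had more than 1 window, and only the window furthest downstream held the match. These 5 genes had ratios of 1.38 to 2.62 in Hep3B and of 0.995 to 1.54 in Huh7. The 4 searched genes without a match were SLC43A1, SLC38A2, SLC6A9 and SLC7A5, which had the highest ratios of the 9, at 2.28 in Huh7 and 3.36 in Hep3B. The other three had ratios of 0.926 to 1.19 over both lines. A match is a description of these letters, not evidence that a factor was bound.

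The core of the antioxidant element, through which NRF2 acts, was searched on both strands as TGACNNNGC. It was held by 4 of 9 genes, where 16.1% of all genes did, and by 4 of 16 windows, where 13.3% of all windows did. The matches are shown in the same way because SLC3A2 and SLC7A5 were past the threshold in both lines, and that of SLC1A5 lies on the opposite strand to the gene:
SLC3A2, chr11:62881652-62881680, plus strand: cgagggtgggTGACTCAGCgtcctccttc
SLC7A5, chr16:87869491-87869519, minus strand: gcggggttccTGACGCAGCtgcgggcggc
SLC7A1, chr13:29595755-29595783, minus strand: tgcccggcggTGACGCGGCcgagcgggcc
SLC1A5, chr19:46787386-46787414, minus strand: cctggatcttGCGAGGTCAgctcccgctc
The match of SLC3A2, at -37 to -29, also holds TGACTCA, the letters of an AP-1 site, and that of SLC7A5 lay across the start site, at -2 to 6. The E-box CACGTG, which MYC can bind, was held by SLC7A5, SLC43A1 and SLC1A5, 3 of 9 genes, against 8.77% of all genes. In SLC1A5 the E-box and the antioxidant element core lay in a different window from the C/EBP-ATF element, and the window furthest upstream held none of them. The 250 bases before this SLC3A2 start site are shown whole, with the antioxidant element core in capitals, because this window of the shared heavy chain held both kinds of match, the other lying after the start:
SLC3A2, chr11:62881449-62881698, plus strand: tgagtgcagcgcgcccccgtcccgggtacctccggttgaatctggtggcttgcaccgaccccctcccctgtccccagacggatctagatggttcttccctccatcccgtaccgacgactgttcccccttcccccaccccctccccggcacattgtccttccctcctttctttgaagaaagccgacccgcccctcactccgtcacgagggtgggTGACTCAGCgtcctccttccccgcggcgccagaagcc

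The genes whose ratios were most like those of SLC7A11 and SLC7A5 were sought among 12726 genes at or above the median intensity, by the distance of the 2 log2 ratios. Nearest to SLC7A11 were KIF21B, a kinesin, with ratios of 1.70 and 4.79 at a distance of 0.22, HKDC1, a hexokinase, with 1.63 and 4.14, the amino acid response gene STC2, NAGS, which makes the activator of the urea cycle, with 1.74 and 3.62, and GPNMB, a membrane glycoprotein, with 1.92 and 5.72. Nearest to SLC7A5 were GCLM, at a distance of 0.09, DHRS2, a reductase, with 2.37 and 3.74, C1orf105, with 2.69 and 3.34, UBASH3B, a phosphatase, with 2.01 and 2.98, and RBM24, an RNA-binding protein, with 1.85 and 3.30. The intensity limit was set on the mean of the 4 profiles, so some ratios rest on dim single values. Below the median of 17.3 were NAGS in both Huh7 profiles, GPNMB in both NC profiles and RBM24 in NC Hep3B cells. Likeness over 2 lines rests on 2 numbers per gene and holds nothing about shared control.

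The 4 profiles had nearly the same distribution, with medians between 15.8 and 16.3. Of 9 measured hepatocellular markers, all 9 were at or above the median intensity of all probe sets over the 4 profiles. So were 12726 of all 19775 genes, each read from its brightest probe set. The markers lower in NC Huh7 than in NC Hep3B were ALB, at 155 and 12803, AFP, at 91.8 and 3567, TTR, at 48.1 and 1704, APOA1, at 1046 and 4240, and APOB, at 4109 and 5475. Those higher in NC Huh7 were SERPINA1, at 12710 and 10091, FGB, at 1012 and 209.5, KRT8, at 2869 and 2327, and KRT18, at 6196 and 4485. None of 3 leukocyte markers, 1 of 3 endothelial and 2 of 4 fibroblast markers were at or above the median. For poly-A control transcripts, which are added to the sample as a check of labeling, the log2 ratio of ATO over NC had a median of -0.28 (Huh7) and -0.23 (Hep3B), against 0.07 and 0.10 for hybridization controls. Their part in the transporter ratios was not tested.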

How the data were processed

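RNA of ATO-treated and NC Huh7 and Hep3B cells, 4 samples in all and 1 per condition and line, was hybridized to Affymetrix arrays. Per the methods, the authors preprocessed the arrays with Robust Multi-array Average, took logs and applied quartile normalization in simpleaffy. They deposited an intensity for each probe set, and these are linear, from 2.24 to 14163.5. No source used here says how they became linear again, or if a sample's values come from 1 array or several, or if samples are separate cultures.

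Of 54675 probe sets, 41097 named 1 gene, 1801 several and 11777 none in GEO's platform annotation. Ratios were taken per line from the brightest probe set of each of 19775 genes. The limma test (limma 3.58.1, R 4.3.3) used log2(intensity + 16) with cell line and treatment, Benjamini-Hochberg over all genes at 0.05, and a prior of 1.81 degrees of freedom. The limma fit and the call of ratios past a threshold in both lines were tested on simulated data in R. The other steps ran in Python 3.11.15 with pandas 2.3.3.

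The transporters, context lists and tests were chosen with earlier results of these data known. Named genes are the 10 transporters, in each list those past a threshold in Huh7 and in Hep3B (at most 8) and, where under 4 were, the 4 with the largest absolute mean log2 ratio, 9 fixed by name, and the 5 nearest to SLC7A11 and to SLC7A5. All 9 measured hepatocellular markers are also named, and some genes past a threshold in 1 line were named after their values were seen, as marked in the text. HNF4A and CD68 were not analysed here. Alternatives covered probe set choice, normalization, offsets, thresholds, dim genes, the limma prior, the block on cell line and the methods' t-test. The methods state the t-test for sorafenib sensitivity in the array section, and for comparing groups in general in the statistics section. Here its kind, Student's with equal variance, was applied to ATO against NC on log2(intensity + 16). Promoter windows came from a RefSeq table (GRCh38.p14). Protein sequences were not used here.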

Additional observations from a re-analysis of the deposited data

Results flagged for a closer look

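SLC43A1 and SLC38A1 had ratios on opposite sides of 1 in the lines. The log2 ratio of SLC43A1 was -0.11 in Huh7 and 0.25 in Hep3B. That of SLC38A1 was -0.0076 in Huh7 and 0.46 in Hep3B, and its other two bright probe sets were above 1 in both lines. None of these values was past a threshold, and the difference between the lines was not tested.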

How the results depend on the processing

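The count of 3 transporters above 1.5 in both lines was the same with the mean or median of all probe sets, without _x_at probe sets, with quantile normalization, with arrays centred on their median, with an offset of 16 and with dim genes left out, and no ratio past a threshold changed sign in these. SLC3A2 and SLC7A5 had 1 probe set each, neither _x_at nor dim, so the probe set and dim-gene settings could not change their ratios. Leaving out _x_at probe sets or dim genes could not change those of SLC7A11 either. Of 138 ratios recomputed, some of them fixed in this way, 4 changed side of a threshold, all in Hep3B. SLC7A1 was at 1.45 with the mean and 1.3 with the median of its probe sets, SLC1A4 was at 1.44 with the mean, and SLC38A1 was at 1.64 with the median. With thresholds of 2.0 and 0.5 the count was 1 in both lines, 1 in Huh7 and 4 in Hep3B. The share of all genes past these stricter thresholds was not computed. In 1 line alone the count above 1.5 was 3 (Huh7) to 6 (Hep3B), where 3.21% and 5.04% of all genes were. The count of genes with a limma adjusted p under 0.05 was 9 with an intensity trend and 3 with dim genes left out, and 0 otherwise, with no transporter among them. The smallest limma adjusted p was 0.054 with an offset of 1. The count of transporters with an unadjusted limma p under 0.05, 4 in the fit as reported, was 6 with an offset of 1, with an intensity trend and with dim genes left out, 4 with quantile normalization, 2 with an offset of 64, 2 with no replicate block (cell line left out of the paired model) and 1 by the methods' t-test, the dim SLC6A9. That test, which the methods state for sorafenib sensitivity and for comparing groups in general, was applied to ATO against NC on the values given to limma. By it, 562 genes had a p under 0.05 and 127 a p under 0.01, and none passed after Benjamini-Hochberg adjustment. By limma, 1886 of all 19775 genes had an unadjusted p under 0.05 in the fit as reported. That number was 1878 with an offset of 1, 1907 with an offset of 64 and 1808 with an intensity trend. It was 1836 with quantile normalization, 334 with no replicate block, and 1361 of 12726 genes with dim genes left out. Leaving out a line leaves limma no residual degrees of freedom, so it gave no test. Dim values, as of SLC6A9, limit what a ratio can show.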
